A study of Mus musculus with 6 samples.

Results

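The genes described here encode the keratin filaments of simple epithelium and the actin core of the microvilli: Krt8, Krt18, Krt19, Krt20, Vil1, Ezr, Pls1, Espn, Myo1a and Cdhr2. They were chosen by symbol, and all 10 were found among the 28564 gene identifiers of the count table. RNA was sequenced from epithelial cells of mouse small intestinal crypts, the pits between the villi where stem cells and their dividing progeny lie, in 3 wild-type control (C57Bl/6) and 3 Apln-/- samples. All mice were male and 13 weeks old, and the labels call the samples biological replicates. Libraries are numbered by the sample titles; the knockout samples titled 1, 2 and 3 are described as KO1, KO3 and KO4. Apln encodes the secreted peptide apelin; the sources used here do not say how the allele was made, or whether a sample was 1 animal or a pool. After digestion with Liberase TL, live single cells were sorted for EpCAM and CD44 and against CD31 (endothelium) and CD45 (blood-derived cells). The comparison asks how crypt cell transcripts differ without apelin.

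Keratin filaments are built from pairs of a type I and a type II keratin, so that neither type forms filaments alone. In the intestine Krt8 is the main type II keratin, Krt18, Krt19 and Krt20 are type I, and Krt20 marks differentiated cells nearer the villus. Microvilli hold parallel actin filaments bundled by villin (Vil1), plastin 1 (Pls1) and espin (Espn). Ezrin (Ezr) and the motor myosin 1a (Myo1a) tie the bundle to the membrane, and the protocadherin Cdhr2 links the tips of neighbouring microvilli. The brush border is best developed on villus enterocytes, and crypt cells carry a less ordered one.

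Reads of Apln itself numbered 29, 7 and 5 in the wild-type libraries and 0 in each knockout library, where 0 allows up to 0.138 to 0.142 CPM (the usual depth-scaled count, here with TMM factors between libraries; the limit is 3 counts and covers counting error only). Libraries held 23046880 to 26513481 counts, of which the 5 most abundant entries, led by the mitochondrial ribosomal RNAs mt-Rnr2 and mt-Rnr1, took 70.7% to 75.3% in wild type and 77.3% to 78.9% in knockout. Other genes shared 6037237 to 7616648 counts in wild type and 5144725 to 5623112 in knockout. All CPM are shares of the whole library, these entries included: without the 5 entries the levels of the 10 genes were 4.05 to 4.10 times as high in both groups. Epcam was at 280 to 338 CPM and the stem cell marker Lgr5 at 25.7 to 38.6 CPM over the 6 libraries. The endothelial list (6 genes in the table, 0 tested) summed to at most 1.43 CPM and the immune list (10 genes) to at most 12.1 CPM in any library. Short transcripts were higher in knockout: the median log2 fold change was 0.26 over the 1889 genes with the shortest transcripts and -0.19 over the 1889 with the longest.

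Reads of related or overlapping genes bear on how Krt8 can be read. A processed pseudogene of Krt8 on chromosome 7, Krt8-ps, is 98.6% identical to Krt8 over 941 aligned bases, and 299 coding bases in a row are the same. The pseudogene collected 603 to 1131 counts per library, or 11.8 to 15.9 for every 100 counts of Krt8, so the count of Krt8 is uncertain. The long noncoding gene Gm36026 overlaps 5.16% of the exon bases of Krt8 on the other strand and had 6.55 to 8.76 counts per 100 of Krt8; as the strand setting of the counting is not given, such reads cannot be assigned. Usp37 overlaps 1.38% of the exon bases of Vil1 and Sytl3 0.122% of those of Ezr, also on the other strand.

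Upstream windows of 250 bases came from RefSeq (GRCm38.p6) for 9 of the 10 genes (all but Krt19), as 11 windows, and were searched on both strands for TATAAA (the TATA box), for the CArG box, which is the element read by serum response factor, and for GGGCGG, the GC box; no motif overlapped another. Of these 9 genes, 1 held a CArG box, Vil1, at 73 to 64 bases before the start, against 1.47% of all 32851 windows. Of the 9, Krt20 alone held TATAAA, at 29 to 24 bases before the start, against 12.4% of all windows. GGGCGG was in 4 of the 11 windows, of Vil1, Espn and Ezr, against 32.7% of all windows. The windows of Vil1 (chr1:74409134-74409383, plus strand) and Krt20 (chr11:99438154-99438403, minus strand) are shown, as 1 microvillus and 1 keratin gene with a matched element; capitals mark the CArG box of Vil1 and TATAAA of Krt20; a match is a description of the letters and not of binding.
Vil1: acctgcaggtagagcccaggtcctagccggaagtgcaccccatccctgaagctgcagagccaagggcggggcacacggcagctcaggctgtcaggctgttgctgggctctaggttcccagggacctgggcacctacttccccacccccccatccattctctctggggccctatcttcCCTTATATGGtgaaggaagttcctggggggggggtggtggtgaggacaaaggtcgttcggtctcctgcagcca
Krt20: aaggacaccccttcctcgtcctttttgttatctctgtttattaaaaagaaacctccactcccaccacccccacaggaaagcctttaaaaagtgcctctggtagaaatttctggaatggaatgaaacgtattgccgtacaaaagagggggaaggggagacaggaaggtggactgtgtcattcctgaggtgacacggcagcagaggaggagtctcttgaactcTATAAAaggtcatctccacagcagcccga

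In knockout crypt cells none of the 10 genes changed at an adjusted p under 0.05 (quasi-likelihood test in edgeR, adjusted over 15122 genes by Benjamini-Hochberg), against 26 genes or 0.172% of all tested (0.112% higher and 0.0595% lower); all 10 passed the filter on low counts. At an unadjusted p under 0.05 there were 3, Krt8 and Krt19 with higher and Espn with lower levels in knockout, where 15.2% of all genes tested stood (7.53% higher and 7.66% lower). The DESeq2 Wald test called 0 of the 10 at an adjusted p under 0.05, against 5.36% of the 10288 genes it gave an adjusted p. It had 4 at an unadjusted p under 0.05 (2 higher, 2 lower), against 8.92% of the 28540 genes it gave a p (3.94% higher and 4.98% lower). These include scarce genes, since the filter on low counts, which took 13442 genes out of the edgeR test, was not used here. The 8.92% is therefore not a like background for these 10 genes. In the fit to all 6 libraries, 3 of the 4 keratins had a fold change above 0 (49.5% of all genes), median 0.26 on the log2 scale, and 5 of the 6 microvillus genes one below 0 (50.5% of all genes) with a median of -0.20; the median of all genes was -0.0063. Across 16 other ways of scaling, filtering, testing or leaving out a library, the keratin median stayed between 0.13 and 0.36 and the microvillus median between -0.34 and -0.09, but the split of signs did not hold in each. With the length and GC correction 2 keratins were above and 2 below 0 (Krt18 and Krt20), and all 6 microvillus genes were below. Without wild-type library 3 all 4 keratins were above 0, and so were 3 of the 6 microvillus genes (Vil1, Pls1 and Ezr). Without knockout library 1, 2 of the 4 keratins and 2 of the 6 microvillus genes were above 0. Groups did not overlap for 2 of the 10, Krt19 with knockout above wild type (11.3% of all genes) and Espn with wild type above knockout (9.56%), together 20.9% of all genes. In bulk RNA, fewer cells of a type and less RNA per cell cannot be told apart. Keratin transcripts are also shorter (1437 to 1958 bases) than those of the microvillus genes (3124 to 4618), and the short and long classes of all genes differed in the same direction. Corrected for the trends with length and GC content, the medians were 0.15 for keratins and -0.15 for microvillus genes.

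**Figure D1:**
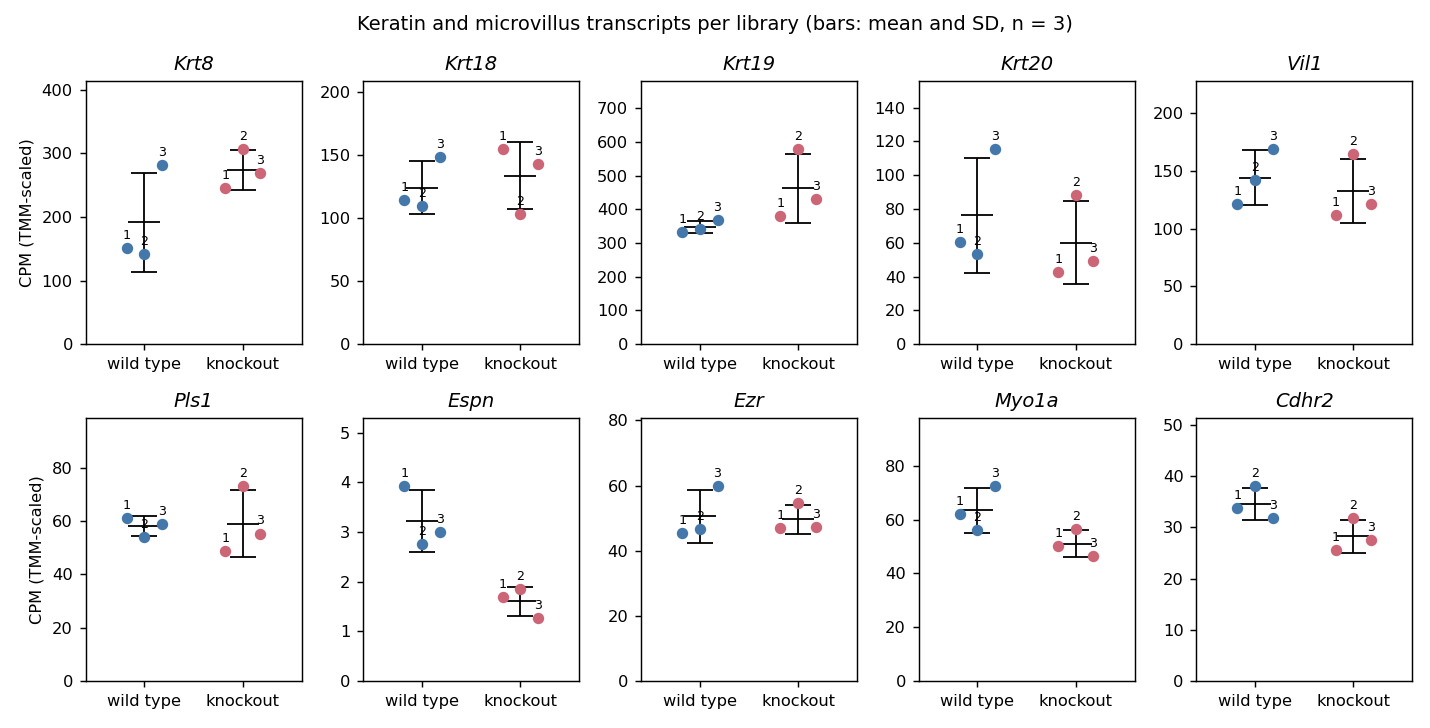
Levels in CPM (TMM-scaled, vertical axis from 0) of the 10 genes in the 3 wild-type and 3 Apln knockout libraries; points are libraries with their replicate number, bars the mean and SD. Espn and Krt19 are the genes whose groups do not overlap, and wild-type library 3 stands apart for Krt8 (281 CPM against 152 and 142) and Krt20 (115 against 60.2 and 53.2).

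Levels per kilobase of the longest annotated transcript allow a rough comparison between genes, as the transcript expressed is not known. On this scale Krt19 was the most abundant of the 10, at 221 ± 11.7 CPM per kb in wild type and 294 ± 65.1 in knockout (SD, n = 3 each). Krt8 (97.8 ± 39.8 and 140 ± 15.8) and Krt18 (86.4 ± 14.8 and 93.0 ± 18.6) followed; their wild-type libraries overlapped, while in knockout every library had more Krt8 (125 to 157) than any had Krt18 (72.0 to 108). Next were Vil1 (46.1 ± 7.65 and 42.5 ± 8.94) and Krt20 (39.6 ± 17.7 and 31.2 ± 12.7), which overlapped in both groups. Myo1a, Ezr and Pls1 lay close together, at 18.4 ± 2.44, 16.0 ± 2.55 and 15.7 ± 1.00 CPM per kb in wild type, with overlapping libraries. Cdhr2 was at 8.38 ± 0.774, and Espn, the least abundant, at 0.699 ± 0.134, 12.0-fold below Cdhr2 in wild type. The keratins thus made up most of the summed level per kb: 80.5%, 79.6% and 82.0% in wild-type libraries 1, 2 and 3 and 85.4%, 84.9% and 85.7% in knockout libraries 1, 2 and 3. Every knockout library had a larger keratin share than any wild-type library; the part of the transcript length trend in this share was not tested.

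Krt8, the type II keratin (ENSMUSG00000049382, chromosome 15, 101996698 to 102004482, minus strand, mm10), was at 152, 142 and 281 CPM in wild-type libraries 1, 2 and 3 and 245, 307 and 270 CPM in knockout libraries 1, 2 and 3. Wild-type library 3 lay among the knockout libraries and at 1.99 times the lowest wild-type library, while the knockout libraries lay within 1.25 times of each other. Means were 192 ± 77.9 and 274 ± 30.9 CPM, and the log2 fold change, knockout over wild type, was 0.52 ± 0.24 (SE), with an edgeR adjusted p of 0.325 (unadjusted p = 0.0481). Leaving out wild-type library 3 gave 0.91 ± 0.16 and an edgeR adjusted p of 0.0213, past the threshold. In that setting 358 of all 15749 genes tested passed, so the call is not particular to Krt8. Leaving out wild-type library 2 gave 0.33 and an edgeR adjusted p of 0.596. Over the 16 alternatives Krt8's adjusted p ran from 0.0213 to 0.601. With the counts of Krt8-ps added, a choice made after the data were seen, the value was 0.50 with an edgeR adjusted p of 0.326. Krt8-ps on its own, at 27.4 ± 7.21 CPM in wild type and 35.7 ± 3.30 in knockout, gave 0.38 ± 0.19 (edgeR adjusted p = 0.369). Wild-type library 3 also had the highest summed goblet cell markers, 5079 CPM against 1543 to 2533 CPM in the other 5 libraries; their part in its Krt8 level was not tested.

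Krt18, the usual type I partner of Krt8 (ENSMUSG00000023043), starts 23698 bases from the start of Krt8 on chromosome 15 and is read on the plus strand (102028180 to 102032027). Its libraries were at 114, 110 and 149 CPM in wild type and 155, 103 and 143 CPM in knockout. The groups overlapped fully, with the lowest and the highest value both in knockout, and the log2 fold change was 0.11 ± 0.18 with a 95% interval of -0.29 to 0.51 (edgeR adjusted p = 0.835). It was -0.0150 after the length and GC correction, so its sign rests on the processing. The pair therefore differed in how its libraries were ordered: Krt8 was highest in knockout library 2, where Krt18 was lowest.

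Krt19, the short type I keratin without the tail domain of the others (ENSMUSG00000020911, chromosome 11, 100140810 to 100148665, minus strand), was at 333, 342 and 368 CPM in wild type and 381, 578 and 429 CPM in knockout. Every knockout library was above every wild-type library, and the nearest, at 368 and 381 CPM, were close. Wild-type libraries had a coefficient of variation of 5.31% and knockout libraries one of 22.1%, because of knockout library 2. The log2 fold change was 0.41 ± 0.17, 1.33-fold (95% interval 1.03 to 1.73), with an edgeR adjusted p of 0.283 (unadjusted p = 0.0343). Without knockout library 2 it was 0.23, and after the length and GC correction 0.32 (edgeR adjusted p = 0.507).

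Krt20, the type I keratin of differentiated cells (ENSMUSG00000035775, chromosome 11, 99428403 to 99438150, minus strand), was at 60.2, 53.2 and 115 CPM in wild type and 42.9, 88.1 and 49.2 CPM in knockout. Each group held 1 library well above its others, wild-type 3 and knockout 2, and the groups overlapped. With means of 76.3 ± 34.1 and 60.1 ± 24.5 CPM it varied most of the keratins within groups, and the log2 fold change was -0.34 ± 0.30 (95% interval -1.01 to 0.32, edgeR adjusted p = 0.641). Without wild-type library 3 it was 0.0882, and without knockout library 2 it was -0.72. The markers of mature enterocytes, the absorptive cells of the villus, were summed at 1212, 1303 and 1399 CPM in wild type and 1186, 1521 and 1123 CPM in knockout. Their highest libraries in each group were the same as those of Krt20, wild-type 3 and knockout 2; their part in the Krt20 level was not tested.

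The balance of the keratin types followed from these values. Krt8 over Krt18 per kb was 0.977, 0.945 and 1.39 in wild-type libraries 1, 2 and 3 and 1.16, 2.17 and 1.38 in knockout libraries 1, 2 and 3. Krt8 over the sum of Krt18, Krt19 and Krt20 was 0.241, 0.225 and 0.362 in wild type and 0.337, 0.323 and 0.347 in knockout. In both ratios wild-type library 3 lay with or above the knockout libraries, so the groups overlapped. Krt19 made up 58.9% to 75.7% of the summed level per kb of Krt18, Krt19 and Krt20 in the 6 libraries.

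**Figure D2:**
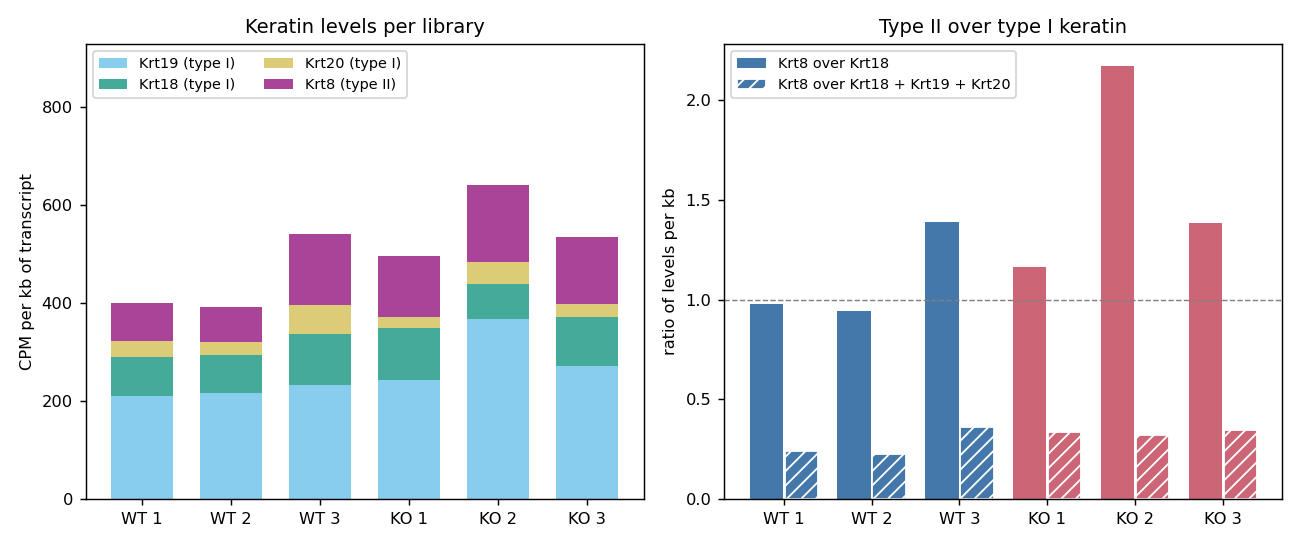
Left, stacked levels of the 4 keratins (CPM per kb of transcript) in each library (WT, wild type; KO, Apln knockout). Right, the ratio of Krt8 to Krt18 (plain bars) and of Krt8 to the 3 type I keratins of the left panel (hatched bars). Blue is wild type and red knockout, with a dashed line at 1. Krt19 is the largest part in every library, and Krt8 over Krt18 is highest in knockout library 2, at 2.17.

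Among the bundling proteins of the microvillus core, villin, which also severs actin in calcium, was encoded by the most abundant transcript. Vil1 (ENSMUSG00000026175, chromosome 1, 74409376 to 74435559, plus strand) was at 121, 142 and 169 CPM in wild type and 112, 165 and 121 CPM in knockout. The groups overlapped, and the log2 fold change was -0.12 ± 0.18 (95% interval -0.52 to 0.28, edgeR adjusted p = 0.812). It was 0.0160 without wild-type library 3 and -0.30 without knockout library 2.

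Pls1, for plastin 1 (ENSMUSG00000049493, chromosome 9, 95752642 to 95845311, minus strand), was at 61.3, 54.0 and 59.0 CPM in wild type and 48.7, 73.2 and 55.3 CPM in knockout. The wild-type libraries lay within those of the knockout, and the log2 fold change was 0.0236 ± 0.17 (95% interval -0.34 to 0.39, edgeR adjusted p = 0.966); it took either sign as single libraries were left out. As folds, the interval ran from 0.788 to 1.31.

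Espn differed most of the 10 genes and is also the scarcest. Espin (ENSMUSG00000028943, chromosome 4, 152120331 to 152152371, minus strand, 20 annotated transcripts) bundles actin tightly and lengthens microvilli. Its counts were 99, 80 and 95 in the wild-type and 36, 40 and 27 in the knockout libraries, or 3.93, 2.75 and 3.00 CPM and 1.69, 1.85 and 1.28 CPM. Each knockout library was below each wild-type library. Means were 3.23 ± 0.620 and 1.603 ± 0.294 CPM, 2.01-fold lower in knockout, with a log2 fold change of -1.005 ± 0.36 (95% interval -1.78 to -0.23) that did not pass (edgeR adjusted p = 0.219, unadjusted p = 0.0155). Over the 16 alternatives the log2 fold change kept its sign, between -1.11 and -0.79, and the adjusted p ran from 0.124 to 0.565. The count per gene does not say which espin isoform is meant. Beside Espn, the summed tuft cell markers (14 genes, 0 of them at 0 counts in all libraries) were at 118 to 171 CPM in wild type and 46.5 to 96.8 CPM in knockout, also without overlap. Within knockout the library order differed. Espn was highest in library 2, where the tuft sum was lowest, and lowest in library 3, where it was highest. Other sums were also lower without overlap, such as enteroendocrine markers (986 to 1441 and 677 to 862 CPM) and terminal web genes (1441 to 1615 and 1290 to 1369 CPM). Paneth cell markers were higher without overlap. The part of any of these lists in the Espn difference was not tested.

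The membrane linkers were close to equal or somewhat lower in value. Ezr (ENSMUSG00000052397, chromosome 17, 6738041 to 6782784, minus strand), for the protein that joins actin to the membrane when phosphorylated, was at 45.3, 46.5 and 59.9 CPM in wild type and 46.8, 54.7 and 47.2 CPM in knockout. Its log2 fold change of -0.0284 ± 0.16 had a 95% interval of -0.37 to 0.32 (edgeR adjusted p = 0.958), and was 0.12 without wild-type library 3. Myo1a (ENSMUSG00000025401, chromosome 10, 127705170 to 127720940, plus strand), the brush border myosin, was at 61.9, 55.9 and 72.5 CPM in wild type and 50.04, 56.5 and 46.6 CPM in knockout. Only knockout library 2 reached into the wild-type range, and the log2 fold change was -0.31 ± 0.15 (edgeR adjusted p = 0.366, unadjusted p = 0.0645). Without wild-type library 3 the value for Myo1a was -0.20.

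Cdhr2, the tip link protocadherin (ENSMUSG00000034918, chromosome 13, 54701461 to 54736662, plus strand), was at 33.9, 38.1 and 31.9 CPM in wild type and 25.6, 31.9 and 27.5 CPM in knockout. The groups met at 31.9 CPM, the lowest wild-type and the highest knockout library. Means were 34.6 ± 3.20 and 28.3 ± 3.22 CPM, and the log2 fold change was -0.29 ± 0.15 (95% interval -0.62 to 0.0458, edgeR adjusted p = 0.407). Its binding partner in the tip link, Cdhr5, was at 120, 113 and 144 CPM in wild type and 79.8, 116 and 97.8 CPM in knockout, a log2 fold change of -0.36 ± 0.17 (edgeR adjusted p = 0.347). For the pair, the highest knockout library was in each case library 2, and its value lay at or inside the edge of the wild-type range.

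**Figure D3:**
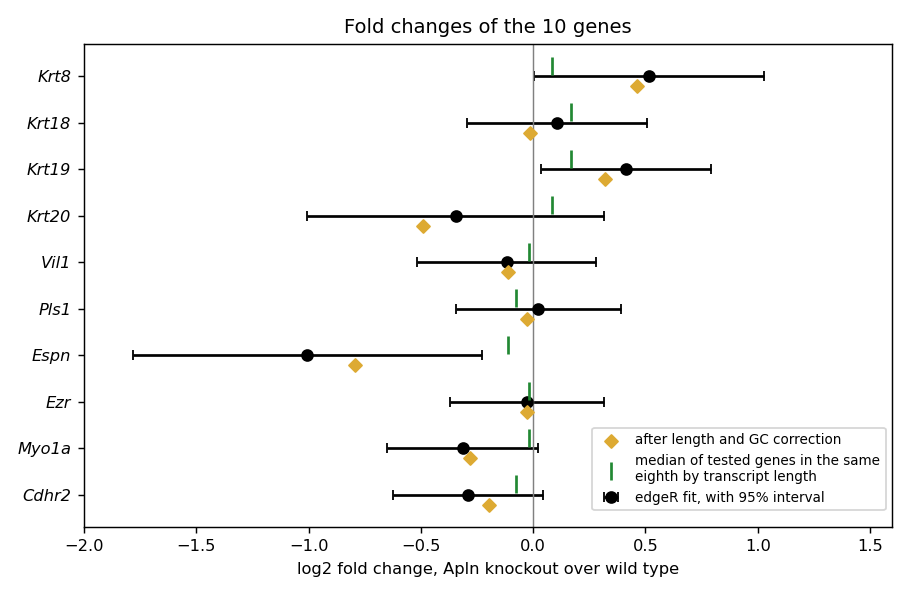
Log2 fold changes (knockout over wild type, horizontal axis) of the 10 genes with 95% intervals (black), after the length and GC correction (diamonds), and the median of tested genes of like transcript length (green ticks). The intervals of Krt8, Krt19 and Espn do not reach 0 before adjustment for the number of genes tested, and the corrected value is nearer to 0 for each of these 3.

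Single libraries stood at the edge of the range for several genes. Wild-type library 3 was the highest of all 6 libraries for 4 of them (Krt20, Vil1, Ezr and Myo1a) and the lowest for 0, while knockout library 1 was the lowest for 4 (Krt20, Vil1, Pls1 and Cdhr2). Knockout library 2 was the highest for 3 (Krt8, Krt19 and Pls1) and, for Krt18, the lowest. Without wild-type library 3, 7 of the 10 genes had a fold change above 0 in place of 4. The biological coefficient of variation, which edgeR fits with help from other genes, was 0.145 to 0.213 for 8 of the genes. It was 0.266 for Krt20 and 0.306 for Espn, against a median of 0.262 over all genes tested, which include scarcer ones. Among the 8, the observed coefficient of variation reached 40.7% in wild type (Krt8) and 22.1% in knockout (Krt19).

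**Figure D4:**
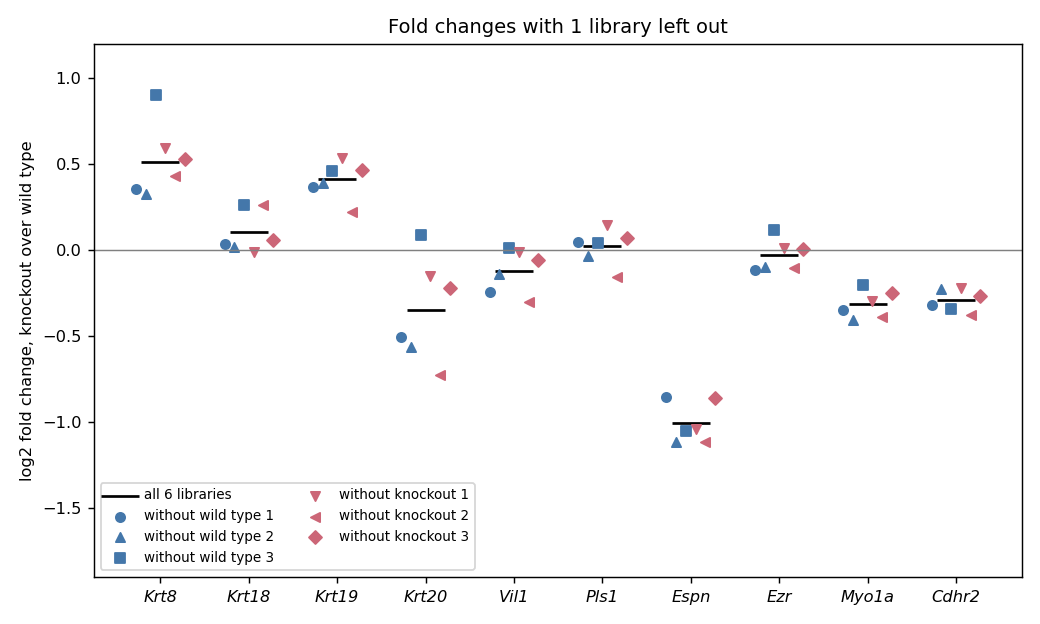
Log2 fold changes (knockout over wild type, vertical axis) of the 10 genes from all 6 libraries (black lines) and with 1 library left out (symbols; blue for a wild-type and red for a knockout library). Leaving out wild-type library 3 moves Krt8 from 0.52 to 0.91 and Krt20 from -0.34 to 0.0882, and Espn stays between -1.11 and -0.85.

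Other genes of keratin filaments and the brush border were taken from 8 lists with 111 genes, of which 106 were in the table and 94 were tested. Of the 94, 0 changed at an adjusted p under 0.05 in edgeR's quasi-likelihood test, where the background is 0.172%, and 3 were higher and 14 lower at an unadjusted p under 0.05 (7.53% and 7.66% of all genes). The DESeq2 Wald test gave 79 of the listed genes an adjusted p and called 5 of them, 1 higher and 4 lower, against 5.36% of all genes (2.57% higher and 2.79% lower). Their median log2 fold change was -0.11, and -0.06 after the length and GC correction. With that correction 2 of the 94 were higher and 7 lower at an unadjusted p under 0.05 in edgeR. Over all 15122 genes 791 were higher and 981 lower in that setting, so the lower count then lay near the background.

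Among 6 tested other keratins, 4 had a fold change above 0 and the median was 0.08, with 0 at an unadjusted p under 0.05. Krt7, a type II keratin of ducts and glands, was the most abundant at 27.3 ± 5.598 CPM in wild type and 29.7 ± 2.16 in knockout (log2 fold change 0.12, edgeR adjusted p = 0.801). Krt23 was at 3.29 ± 1.33 and 4.64 ± 2.05 CPM, and Krt15, a keratin of stratified epithelium, at 0.326 ± 0.284 and 0.765 ± 0.367 CPM. Of the 13 genes that anchor keratin filaments, 6 were above and 7 below 0, with a median of -0.09. Plec encodes plectin, which cross-links keratin filaments to hemidesmosomes and actin. It was at 57.6, 53.0 and 77.9 CPM in wild type and 40.0, 43.2 and 39.8 CPM in knockout, without overlap, with a log2 fold change of -0.62 ± 0.17 (edgeR adjusted p = 0.123; 0.0115 by DESeq2's Wald test). Its log2 fold change over the alternatives ran from -0.74 to -0.24. Fam83h, which brings casein kinase 1 to keratin filaments, was at 15.4 ± 4.19 and 10.6 ± 1.55 CPM (-0.53 ± 0.23, edgeR adjusted p = 0.291). Csnk1a1, for that kinase, was at 85.4 ± 6.11 and 100.3 ± 3.22 CPM (0.23 ± 0.14, edgeR adjusted p = 0.466).

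For the microvillus, 4 of the 5 genes of the tip link complex besides Cdhr2 were below 0, with a median of -0.11. Myo7b, the motor that carries the complex, was at 66.6, 74.9 and 66.3 CPM in wild type and 54.2, 55.4 and 63.3 CPM in knockout, without overlap (-0.27 ± 0.14, edgeR adjusted p = 0.413). Calml4, a light chain of that motor, had the other sign, at 17.7 ± 7.10 and 22.4 ± 0.191 CPM (edgeR adjusted p = 0.572). Among 12 actin bundlers and gelsolin family members, 7 were below 0 and the median was -0.20. Lowest in p were Svil, for supervillin (17.9 ± 4.54 and 11.8 ± 2.70 CPM), the EPS8 relative Eps8l2 (24.1 ± 3.43 and 17.97 ± 2.499) and the gelsolin relative Flii (32.7 ± 8.04 and 25.9 ± 1.58). None of these 3 passed (edgeR adjusted p of 0.242, 0.282 and 0.426). The relatives of ezrin and its scaffolds were split 4 and 4 over 8 tested genes, with a median of 0.06. Nf2, for the ezrin relative merlin, was at 18.2, 25.6 and 12.7 CPM in wild type and 12.6, 11.6 and 12.6 CPM in knockout, groups that did not overlap, though the lowest wild-type and the highest knockout library were close (edgeR adjusted p = 0.240). Slc9a3r1, the scaffold that binds active ezrin, was at 25.7 ± 0.714 and 22.05 ± 3.39 CPM (edgeR adjusted p = 0.571), and its relative Slc9a3r2 at 0.834 ± 0.646 and 0.346 ± 0.403 CPM.

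Myosins and assembly factors of the brush border lay mostly below 0, 13 of 16, with a median of -0.15. Stxbp2, whose protein serves the fusion of apical vesicles, was at 20.8, 23.9 and 18.3 CPM in wild type and 14.1, 15.7 and 14.4 CPM in knockout, without overlap (-0.51 ± 0.17, edgeR adjusted p = 0.192). Clmn was at 22.02 ± 2.93 and 15.4 ± 2.24 CPM, also without overlap (edgeR adjusted p = 0.207), and the motor gene Myo1d at 136 ± 20.5 and 101 ± 18.4 CPM (edgeR adjusted p = 0.274). In the terminal web and cortical actin, 8 genes were above and 9 below 0, with a median of -0.0032, and the 2 cytoplasmic actins went apart. Actb, for beta-actin, was at 593, 718 and 585 CPM in wild type and 467, 482 and 493 CPM in knockout (-0.40 ± 0.15, edgeR adjusted p = 0.240). Actg1, for gamma-actin, was at 34.3, 44.8 and 50.6 CPM in wild type and 63.2, 61.3 and 73.2 CPM in knockout (0.61 ± 0.17, edgeR adjusted p = 0.130). The groups of neither actin overlapped, and DESeq2's Wald test called both, at adjusted p of 0.0405 and 0.0301. Myl12a, a myosin light chain gene, was at 16.1 ± 2.64 and 22.9 ± 0.755 CPM (edgeR adjusted p = 0.198). Actins have many near-identical copies, so their counts are uncertain.

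Of 17 transcription regulators of the intestinal epithelium and the cytoskeleton, 13 were below 0 and the median was -0.30. The lowest p belonged to Mrtfa, whose protein is held by free actin and, once released, acts with serum response factor on cytoskeletal genes. It was at 9.40, 20.7 and 12.5 CPM in wild type and 4.78, 6.83 and 6.47 CPM in knockout, without overlap, a log2 fold change of -1.24 ± 0.28 (edgeR adjusted p = 0.0879). Its relative Mrtfb was at 69.9, 78.5 and 74.0 CPM in wild type and 50.3, 49.6 and 58.6 CPM in knockout (-0.49 ± 0.14, edgeR adjusted p = 0.142). Over the 16 alternatives Mrtfa's log2 fold change ran from -1.47 to -0.87, and its adjusted p was under 0.05 in 3 of them. Vil1, the gene with a CArG box in its upstream window, had a log2 fold change of -0.12, within its replicate spread. It is 1 gene, and a part of Mrtfa or Mrtfb in its value was not tested.

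**Figure D5:**
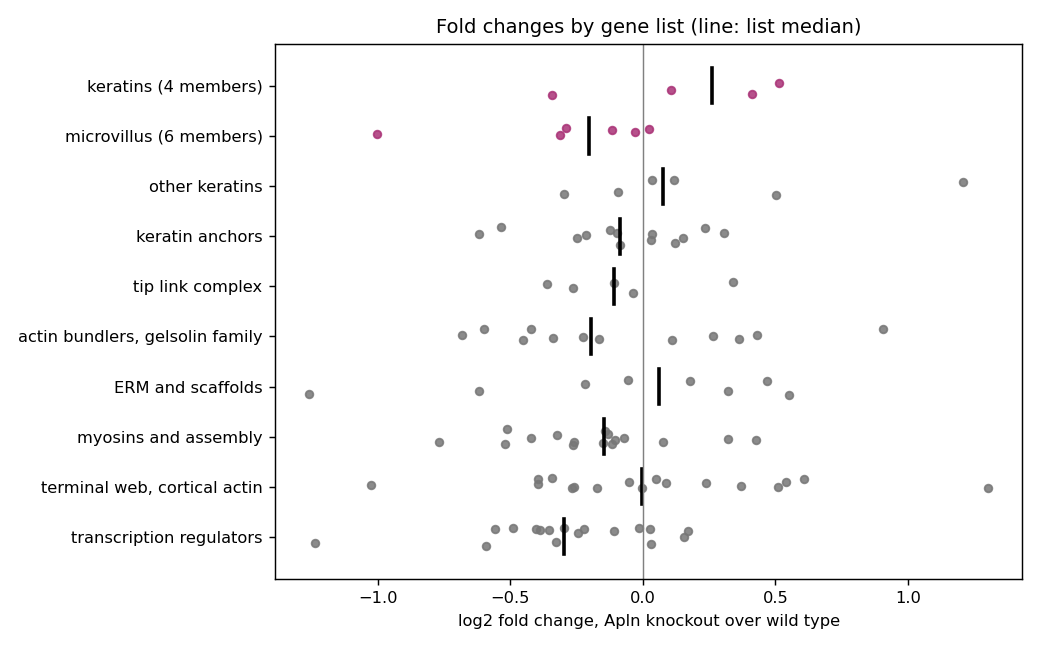
Log2 fold changes (knockout over wild type, horizontal axis) of the tested genes of each list, 1 point a gene (vertical scatter within a list carries no value), with the list median as a black line. The keratin members have a median of 0.26 and the microvillus members one of -0.20, and the lists of myosins and of transcription regulators have 13 genes each below 0.

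Markers of other crypt cell types were measured beside these genes, as cell types differ in keratins and microvilli. For mature enterocytes 14 of 19 markers were above 0 (median 0.12), and their summed levels overlapped between the groups. Mgam, a brush border disaccharidase gene, was at 508 ± 13.8 and 461 ± 29.5 CPM, and Anpep, for aminopeptidase N, at 235 ± 56.2 and 160 ± 50.2 CPM. Fabp1 was at 5.69 ± 2.16 and 2.83 ± 0.700 CPM and Apoa1 at 59.1 ± 4.89 and 84.8 ± 27.6 CPM, lipid handling genes with opposite signs. None of these 4 passed (edgeR adjusted p of 0.693, 0.277, 0.199 and 0.274). Tuft cells, which carry long stiff microvilli and much villin and Krt18, had 12 of 13 tested markers below 0 and a median of -1.01. Of these Plcb2, for a phospholipase of taste signalling, fell from 8.99 ± 1.97 to 2.84 ± 0.820 CPM (-1.66 ± 0.28, edgeR adjusted p = 0.0460), where 0.0595% of genes tested were called lower; over the 16 alternatives its adjusted p ran from 1.14e-05 to 0.331 and it was called in 7. Dclk1 was at 41.6 ± 8.65 and 20.7 ± 8.44 CPM. Knockout library 2 had both the lowest tuft sum, 46.5 CPM, and the lowest Krt18, 103 CPM, while knockout library 1 had a tuft sum of 68.6 CPM and the highest Krt18, 155 CPM.

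The other marker lists give the remaining make-up of the samples. Enteroendocrine markers were summed at 986 to 1441 CPM in wild type and 677 to 862 CPM in knockout, where 13 tested genes had a median of -0.47. Paneth cell markers went the other way, at 1292 to 1665 and 2141 to 2964 CPM with a median of 0.89 over 9 genes. Reg3g, the 1 Paneth marker below 0 (-0.11), was at 511, 597 and 503 CPM in wild type and 132, 948 and 408 CPM in knockout. It thus made up much of the lowest knockout sum, 2141 CPM in library 2. No gene of these 2 lists passed an adjusted p under 0.05 in edgeR. Stem cell markers overlapped, at 688 to 1046 and 716 to 1395 CPM, and were lowest in each group in the libraries where Krt20 was highest, wild-type 3 and knockout 2. Goblet cell markers were at 1543 to 5079 and 2313 to 2533 CPM. Markers of mesenchyme and muscle summed to 5.71 to 42.7 CPM and 16.6 to 46.6 CPM, against keratin sums of 646 to 914 and 824 to 1076 CPM. The part of these differences in the keratin and microvillus values was not tested.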

How the data were processed

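Crypt epithelial cells of 3 wild-type and 3 Apln-/- samples were profiled by RNA sequencing. Per the labels' protocols, the RNeasy Plus Micro kit served for extraction, Ovation Pico WTA for amplification and Nextera DNA Flex for the libraries. The submitters' processing notes list STAR 2.6.1, HTSeq and mm10; annotation release and strand setting: not given in the sources used here. Values are whole-number gene counts as the authors deposited them, not normalized, 1 column per sample. Symbols, coordinates and transcript lengths (longest transcript) came from GENCODE M21, which matched 28551 of 28564 identifiers.

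In R 4.3.3 with edgeR 4.0.16, filterByExpr (count minimum 10, total minimum 15) left 15122 genes, libraries were TMM-scaled, and the quasi-likelihood functions glmQLFit and glmQLFTest were run with genotype as the only term; Benjamini-Hochberg adjustment ran over all genes tested (threshold 0.05, two-sided). Intervals (95%) and SE were taken from the F statistic. Reads amplified without molecular identifiers do not stand for separate molecules, so limits from counts cover counting error only. Libraries of a group differed by a chi-square per degree of freedom of 7.50 to 29.9, so none was another counted again. The fit was also run on counts simulated from its own estimates, which cannot show how well the model suits these libraries. Alternatives used DESeq2 1.42.0, limma 3.58.1 (voom), other scalings and filters, a spline correction for transcript length and GC content, a replicate block, and each library left out.

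The members, the gene lists and the tests were chosen with earlier results of these data known. Named are all 10 members and, of each pathway list, the 3 genes of lowest p; of each marker list, genes of lowest p or highest level. Krt5, Krt6a, Krt6b, Krt16, Krt17 and Emcn were not analysed here, and some items that the rule names are not reported here. With 3 samples a group, p-values set the group difference against an estimate of the spread between samples. In edgeR that estimate takes help from other genes, and the spread may be partly technical.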

Additional observations from a re-analysis of the deposited data

How the results depend on the processing

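The count of 26 genes called over the whole table was 1 with DESeq2 size factors, 1 with upper-quartile scaling, 1 without the 5 most abundant entries and 1 with the length and GC correction. It was 551 with the DESeq2 Wald test, 56 with limma-voom, 629 without a filter and 117 with a filter of 1 CPM in 3 libraries. With 1 library left out it was 358 without wild-type library 3 and 0 or 1 without any other. The replicate block gave 173, and 27 together with the length and GC correction. Same-numbered libraries correlated at 0.0406, 0.0569 and 0.0109 in their deviations, and 5 of 6 libraries correlated best with their own number. These outcomes are not independent, as the same correlations serve both groups. The labels do not say whether the numbers pair samples, so whether same-numbered libraries share more than a number is not known. The numbers are those of the titles; by the descriptions (KO1, KO3 and KO4) knockout libraries 2 and 3 carry other numbers, and the block and these correlations rest on that choice.

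Of the 10 keratin and microvillus genes, 0 were called under every alternative that kept all libraries, and 0 to 1 with 1 library left out. The 1 was Krt8 without wild-type library 3, where 358 of all 15749 genes tested were called. Pathway genes called were 0 in all settings but the following. The DESeq2 Wald test called 5 (Plec, Actb, Actg1, Mrtfa and Mrtfb), against 5.36% of all genes it gave an adjusted p. Without a filter 3 of 106 were called (Plec, Actg1 and Mrtfa), against 629 of 28564 over all genes. With the replicate block 1 of 94 was called (Mrtfa), against 173 of 15122. With any library left out 0 were called. Over all alternatives of the 10 fold changes, Krt8 with Krt8-ps included, 147 values kept their sign and call, 13 changed sign and 1 became a call. Signs turned for Krt18 (-0.0150 with the length and GC correction, -0.0262 with the replicate block and that correction) and Pls1 (-0.0046 with the DESeq2 Wald test, -0.0255 with the correction, -0.0480 with the replicate block and the correction). With 1 library left out, Krt18 ran from -0.0075 to 0.26, Krt20 from -0.72 to 0.0882, Vil1 from -0.30 to 0.0160, Pls1 from -0.16 to 0.15 and Ezr from -0.12 to 0.12. The ratio of Krt8 to the sum of Krt18, Krt19 and Krt20 rose in both groups when levels were not divided by transcript length. It was then 0.341 in place of 0.276 in wild type and 0.419 in place of 0.335 in knockout. Without the 5 most abundant entries all 20 member levels (10 genes, both groups) were 4.05 to 4.10 times those printed, since CPM then divides by fewer counts. The cause of the other shifts was not tested. Depth limits Espn most, with 27 to 99 counts per library.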
